A study of Mus musculus with 18 samples.

Results

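In all, 10 genes of epidermal growth factor (EGF) signalling were followed across the 6 groups of the series: the ligands Hbegf, Areg and Ereg, their receptor Egfr, and the feedback inhibitors Errfi1, Spry1, Spry2, Spry4, Spred1 and Spred2. They were taken by symbol from the deposited count table, where all 10 of 10 were present among 55487 genes. Of these, 9 passed the filter on low counts that left 16432 genes for testing, and Areg did not. The cells were Leydig cells in primary culture from mouse, which make testosterone in the testis, and carried a control siRNA (siNC) or one directed at Prdx1 (siprdx1). Prdx1 encodes peroxiredoxin 1, an enzyme that reduces hydrogen peroxide (H2O2). In each siRNA arm 1 group had no H2O2, 1 had 200 µM H2O2 for 30 min, and 1 had the H2O2 step followed by 5 µM fluvastatin (FV), a statin that blocks HMG-CoA reductase, for 6 h. The groups without fluvastatin spent those 6 h in 0.1% DMSO. DMSO is not recorded for the fluvastatin groups, and fluvastatin was not given without H2O2, so the drug, a possible difference in vehicle and the preceding H2O2 step cannot be told apart in what is called the fluvastatin effect here. Each group held 3 libraries, labelled as biological replicates without naming animals, so p-values measure the spread between these cultures.

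EGF-family ligands are made as membrane-anchored precursors and are released by proteases. They bind EGFR or its relatives in the ERBB family, and the activated receptor passes the signal through RAS to the kinase ERK, which drives transcription in the nucleus. Several products of that transcription act back on the pathway. ERRFI1 (also called MIG6) binds the kinase domain of EGFR and blocks it, while the Sprouty (SPRY) and SPRED proteins restrain the step from receptor to RAS and RAF. In the ovary and testis, amphiregulin (Areg) and epiregulin (Ereg) are known as local mediators of luteinising hormone, and EGFR signalling is known to modulate steroid synthesis in Leydig cells.

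Total counts per library ran from 15201530 to 23898435. Prdx1 stood at 1279 to 1689.6 CPM (counts scaled by library size) in the siNC libraries and at 426 to 576 in the siprdx1 libraries, with a knockdown of -1.52 ± 0.06, -1.64 ± 0.06 and -1.47 ± 0.06 (log2 ± SE, n = 3 per group) without H2O2, after H2O2 and after H2O2 with fluvastatin. Of 8 Leydig markers, Cyp11a1 averaged 712 CPM, Star 286 and Insl3 50.4, while Cyp17a1 and Hsd17b3, enzymes of testosterone synthesis, averaged 0.0318 and 0.0670 CPM and failed the low-count filter. All 12 macrophage markers and all 6 fibroblast markers passed that filter, with group means of 8191 to 10040 CPM and 15350 to 19348 CPM for the summed lists, and none of 4 germ cell markers did. These are bulk libraries, so more or fewer cells of a type and more or less RNA per cell cannot be told apart. Among replicate pairs, siprdx1+H2O2 replicates 1 and 2 were the least alike, with a chi-square per degree of freedom of 16.1 against 2.64 for the most alike pair, and results that change without either of them are given with both values.

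Upstream windows from RefSeq (GRCm38.p6, the 250 bases before a transcript start) were examined for 7 of the 10 genes and not for Hbegf, Ereg and Spry4. Those of Areg and Errfi1, whose counts were highest with fluvastatin, are printed beside those of Spry2, which rose less, and Spry1, which fell. Capitals mark matches, on either strand, to a cAMP response element (CRE, TGACGTCA), an AP-1 site (TGANTCA), a CArG box, a TEAD site (GGAATG) or a TATA box (TATAAA). Each is read 5′ to 3′ on the strand of the gene, for Areg at chr5:91139349-91139598 (+), Errfi1 at chr4:150854820-150855069 (+), Spry2 at chr14:105896820-105897069 (-) and Spry1 at chr3:37639697-37639946 (+).
Areg: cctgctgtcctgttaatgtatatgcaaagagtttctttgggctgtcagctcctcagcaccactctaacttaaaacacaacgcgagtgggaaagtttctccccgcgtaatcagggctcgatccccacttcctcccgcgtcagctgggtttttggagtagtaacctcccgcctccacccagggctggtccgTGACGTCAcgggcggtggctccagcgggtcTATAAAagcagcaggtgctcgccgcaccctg
Errfi1: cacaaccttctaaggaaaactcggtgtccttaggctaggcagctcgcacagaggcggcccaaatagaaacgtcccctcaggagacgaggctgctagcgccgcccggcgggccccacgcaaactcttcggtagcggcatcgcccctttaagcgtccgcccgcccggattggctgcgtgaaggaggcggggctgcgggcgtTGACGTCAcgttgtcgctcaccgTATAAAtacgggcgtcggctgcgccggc
Spry2: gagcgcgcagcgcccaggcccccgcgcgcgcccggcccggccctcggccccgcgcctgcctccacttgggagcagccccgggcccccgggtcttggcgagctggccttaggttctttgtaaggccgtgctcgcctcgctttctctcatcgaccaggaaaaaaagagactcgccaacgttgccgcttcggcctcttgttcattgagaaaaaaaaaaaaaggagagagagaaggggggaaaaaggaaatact
Spry1: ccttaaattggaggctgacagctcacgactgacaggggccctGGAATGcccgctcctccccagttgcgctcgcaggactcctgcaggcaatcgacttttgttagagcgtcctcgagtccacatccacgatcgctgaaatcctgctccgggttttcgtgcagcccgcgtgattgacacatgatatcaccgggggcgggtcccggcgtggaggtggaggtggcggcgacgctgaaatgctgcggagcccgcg
The Areg window held a CRE 61 to 54 bases before the start and a TATA box 31 to 26 bases before it, and the Errfi1 window held a CRE 51 to 44 and a TATA box 28 to 23 bases before the start. A CRE occurred in 1.55% and a TATA box in 12.4% of 32851 windows of this length. RefSeq gives Errfi1 a second window, at chr4:150853546-150853795 (+), which held a TEAD match 65 to 60 bases before its start and neither a CRE nor a TATA box. This second window, not printed, lies upstream of the span annotated for Errfi1, whereas the printed one lies inside that span. The windows of Egfr, Spred1 and Spred2 are not printed either. The Spry1 window held a TEAD match, found in 12.6% of windows, 208 to 203 bases before the start, and the Spry2 window held none of the 5 motifs. Neither AP-1, found in 6.75% of windows, nor the CArG box, found in 1.47%, occurred in these 4 windows. The GC box (GGGCGG, 32.7% of windows) and the ETS core (GGAAGT, 19.7%) were also searched and are left in lower case. The Areg window held 1 of each, the Errfi1 window 3 GC boxes of which a pair overlap each other, and the Spry1 window 1 GC box, none of them overlapping a capitalised match. A match is a description of the letters and not a mapped binding site. Whether any motif goes with the fluvastatin effect was not tested, and Hbegf and Ereg, which also rose strongly, were not examined.

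The ligands had the largest changes. With fluvastatin, Hbegf, Ereg and Areg were high in all 6 fluvastatin libraries and low in the other 12, whereas Hbegf was the one of them that passed for H2O2 alone. Hbegf (heparin-binding EGF-like growth factor, which binds EGFR and ERBB4, ENSMUSG00000024486, chr18:36504927-36515805 on the minus strand of GRCm38) stood at 3.97, 3.49 and 3.80 CPM in siNC, 6.86, 8.03 and 7.68 in siNC+H2O2, and 92.1, 88.9 and 85.0 in siNC+H2O2+FV. In the siprdx1 arm the values were 3.36, 2.96 and 3.69 CPM without H2O2, 5.09, 5.82 and 4.64 with H2O2, and 82.2, 77.6 and 75.8 with fluvastatin. Ordered by mean, siNC+H2O2+FV came first, then siprdx1+H2O2+FV, siNC+H2O2, siprdx1+H2O2, siNC and siprdx1, and only the last pair of neighbours overlapped. H2O2 raised Hbegf 2.01-fold in siNC (log2 1.01 ± 0.11, edgeR adjusted p = 1.22e-06) and 1.57-fold in siprdx1 (0.65 ± 0.12, adjusted p = 0.000887). The siprdx1 call was lost when only those groups were fitted (0.64, edgeR adjusted p = 0.0522). Fluvastatin after H2O2 then raised it 11.8-fold in siNC (3.56 ± 0.08, edgeR adjusted p = 1.33e-19) and 15.2-fold in siprdx1 (3.92 ± 0.09, adjusted p = 2.76e-20), and each of these fluvastatin calls held without any 1 library.

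Ereg (epiregulin, a ligand of EGFR and ERBB4, ENSMUSG00000029377, chr5:91074622-91093646, plus strand) moved with fluvastatin and not detectably with H2O2. Its libraries read 6.89, 5.50 and 5.95 CPM in siNC, 5.90, 6.40 and 5.69 in siNC+H2O2, and 99.8, 97.2 and 91.0 in siNC+H2O2+FV. The siprdx1 arm read 4.86, 5.20 and 5.19 CPM, then 5.34, 4.65 and 4.36 with H2O2, and 88.2, 83.5 and 94.2 with fluvastatin. The H2O2 and untreated libraries overlapped in each arm, the fluvastatin libraries lay far above both, and the 2 fluvastatin groups overlapped. The H2O2 effect was -0.03 ± 0.11 in siNC (edgeR adjusted p = 0.911, 95% interval -0.25 to 0.19) and -0.10 ± 0.11 in siprdx1 (adjusted p = 0.685, interval -0.33 to 0.14). Fluvastatin raised Ereg 16.0-fold in siNC (4.00 ± 0.09, edgeR adjusted p = 3.58e-20) and 18.6-fold in siprdx1 (4.22 ± 0.09, adjusted p = 1.14e-20). The annotation places Gm19610 antisense to Ereg, and since it is not given in the sources used here whether counting used strand, reads of the pair may be mixed. Gm19610 reached at most 2.36 CPM in any library, which was up to 37.3% of the Ereg value in the same library but below every fluvastatin value of Ereg.

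Areg (amphiregulin, a ligand of EGFR, ENSMUSG00000029378, chr5:91139599-91148432, plus strand) lies 45952 bases downstream of Ereg with no annotated gene between them. It was near the limit of detection, with 1, 0 and 0 counts in siNC, 0, 1 and 0 in siNC+H2O2, and 7, 5 and 12 in siNC+H2O2+FV. In siprdx1 it had 1, 0 and 0 counts, 1, 0 and 0 with H2O2, and 7, 10 and 8 with fluvastatin. The 6 fluvastatin libraries were therefore all above the other 12, none of which had more than 1 count. Pooled over 3 libraries and scaled to depth, the ratio of fluvastatin to H2O2 alone was 24.0 in siNC (24 counts against 1, exact 95% interval 3.91 to 986) and 28.6 in siprdx1 (25 against 1, 4.68 to 1174), intervals that cover counting error only. In a fit without the low-count filter, which tested 30307 genes, the fluvastatin effect passed in siNC (edgeR adjusted p = 0.00408) and in siprdx1 (adjusted p = 0.00163). Its neighbours on the same stretch of chromosome 5, Epgn (chr5:91027464-91035215, plus strand) and Btc (chr5:91357261-91402994, minus strand), also encode EGFR ligands and are named here for their position. Btc averaged 0.645 to 0.867 CPM over the groups and passed in no comparison, and Epgn averaged at most 0.114 CPM and was not tested.

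**Figure D1:**
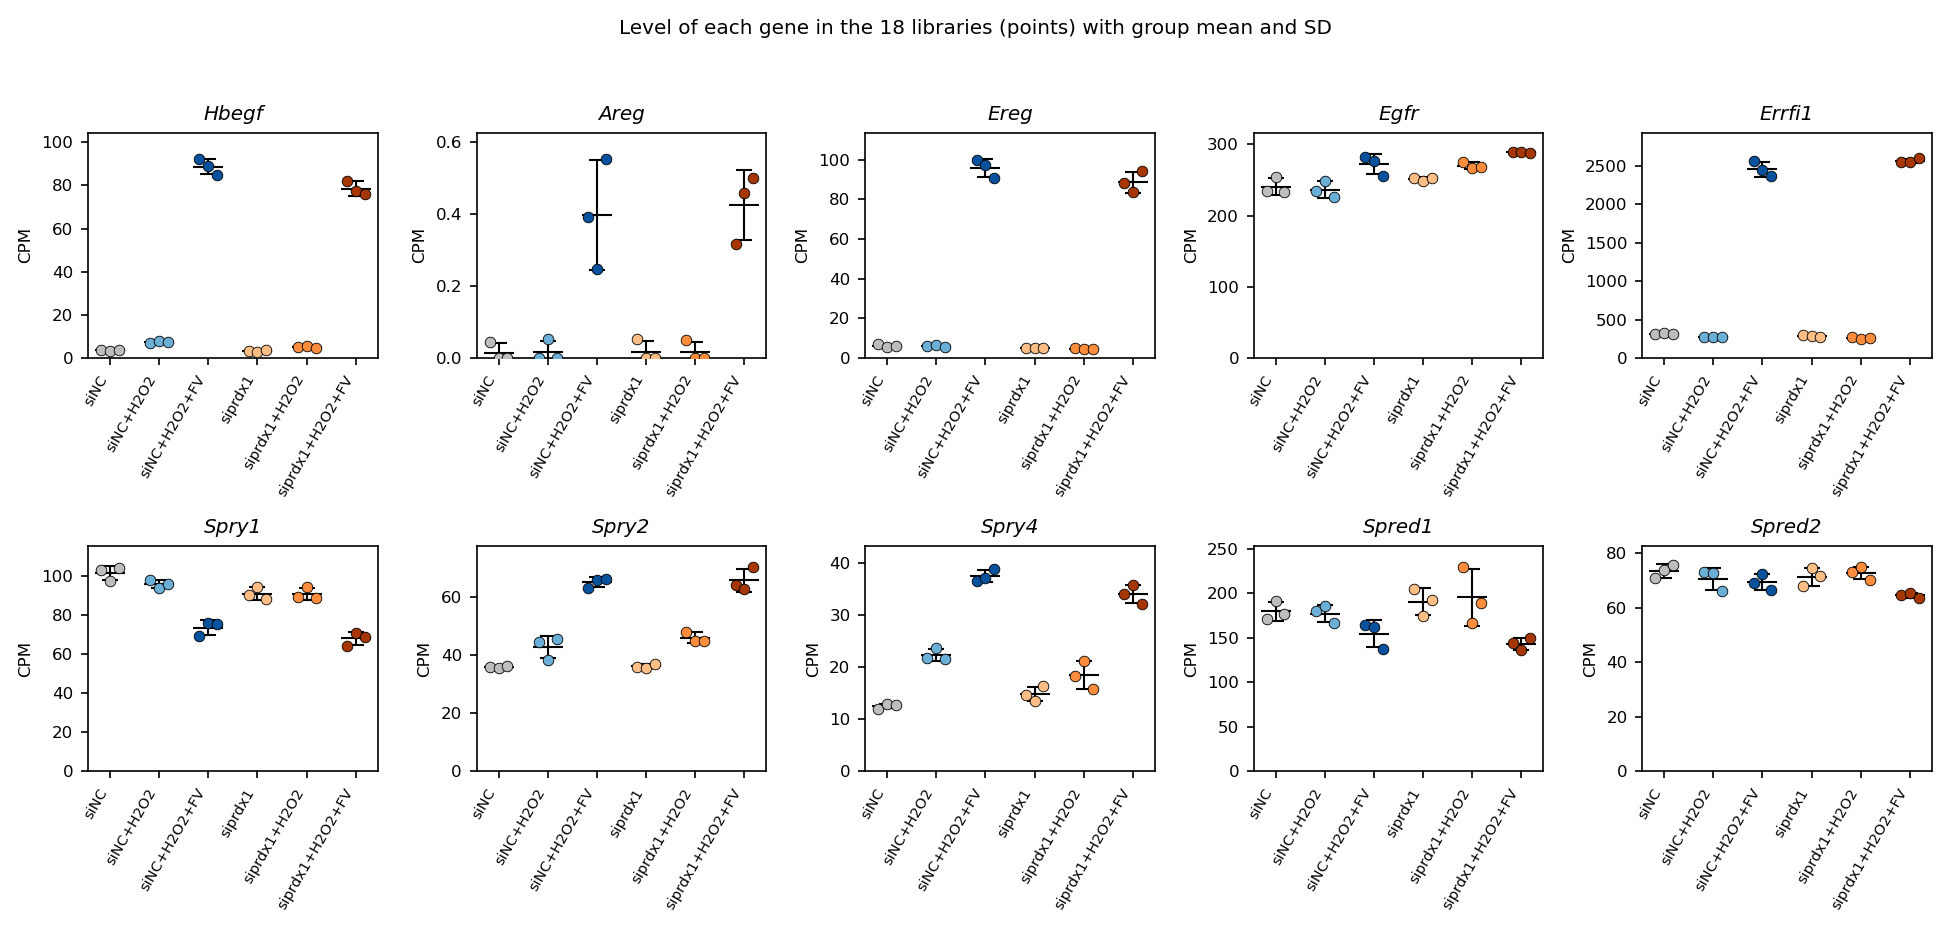
CPM of each of the 10 genes in every library (points, 3 per group), with the group mean (horizontal bar) and SD (whiskers), each panel on its own linear axis from 0. Hbegf, Areg, Ereg and Errfi1 are high only in the 2 fluvastatin groups, Spry4 and Spry2 step up with H2O2 and again with fluvastatin, and Spry1 is lowest with fluvastatin.

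Egfr (the receptor, ENSMUSG00000020122, chr11:16752203-16918158, plus strand) changed little. It read 235, 254 and 233 CPM in siNC, 235, 249 and 226 in siNC+H2O2, and 283, 277 and 256 in siNC+H2O2+FV. The siprdx1 values were 253, 249 and 252 CPM without H2O2, 275, 267 and 268 with H2O2, and 289, 290.1 and 288 with fluvastatin. The fluvastatin libraries were the highest in each arm, without overlap, by a small margin. The fluvastatin effect was 0.20 ± 0.05 in siNC (edgeR adjusted p = 0.00467) and 0.10 ± 0.05 in siprdx1 (adjusted p = 0.192), and the H2O2 effects of -0.02 ± 0.05 and 0.10 ± 0.05 did not pass (adjusted p = 0.824 and 0.253). Its size depended on the scaling: with library totals alone in place of TMM, which scales to the typical gene, the fluvastatin effect on Egfr was 0.10 in siNC (edgeR adjusted p = 0.157) and -0.01 in siprdx1. That scaling put the median of all genes at -0.115 and -0.108 in these comparisons, against -0.01 and -0.01 with TMM, so all directions here are relative to the median gene.

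Scaled to exon length, Hbegf and Ereg were far below the receptor after H2O2 alone and came nearer to it with fluvastatin, while Areg stayed far below. Mean CPM per kilobase in siNC+H2O2 was 1.56 for Hbegf, 1.45 for Ereg and 20.9 for Egfr. In siNC+H2O2+FV it was 18.3, 23.3 and 24.0, and in siprdx1+H2O2+FV 16.2, 21.5 and 25.5. Areg stood at 0.326 CPM per kilobase in siNC+H2O2+FV. Errfi1, the most abundant of the 10 on this scale, went from 77.0 to 686 CPM per kilobase in siNC and from 73.5 to 715 in siprdx1.

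Of the 6 feedback inhibitors, Errfi1 had by far the largest change. Errfi1 (ERBB receptor feedback inhibitor 1, ENSMUSG00000028967, chr4:150853919-150868892, plus strand) read 318, 323 and 314 CPM in siNC, 278, 275 and 274 in siNC+H2O2, and 2562, 2438 and 2369 in siNC+H2O2+FV. In siprdx1 it read 296, 282 and 278 CPM, 279, 251 and 259.5 with H2O2, and 2545, 2546 and 2597 with fluvastatin. The 3 siNC+H2O2 libraries were below the 3 siNC libraries, the corresponding siprdx1 groups overlapped, and the fluvastatin libraries were the highest in both arms. H2O2 lowered Errfi1 to 0.868 times its level in siNC (-0.20 ± 0.05, edgeR adjusted p = 0.00955), while the effect in siprdx1 was -0.12 ± 0.05 (adjusted p = 0.151, and 0.0440 without siprdx1+H2O2 replicate 1). Fluvastatin raised it 8.90-fold in siNC (3.15 ± 0.05, edgeR adjusted p = 1.90e-22) and 9.74-fold in siprdx1 (3.28 ± 0.05, adjusted p = 6.73e-23). The annotated partners on the other strand of Egfr, Errfi1 and Spry4 were at no more than 0.0719% of those genes in any library.

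Spry4 and Spry2, Sprouty proteins that restrain RAS activation by receptor kinases, rose with both treatments. Spry4 (ENSMUSG00000024427, chr18:38586247-38601415, minus strand) read 12.0, 12.8 and 12.8 CPM in siNC, 21.7, 23.7 and 21.6 in siNC+H2O2, and 36.4, 37.1 and 38.7 in siNC+H2O2+FV. In siprdx1 it read 14.6, 13.6 and 16.4 CPM, 18.3, 21.2 and 15.8 with H2O2, and 34.1, 35.7 and 32.2 with fluvastatin. The siNC groups formed 3 steps without overlap, whereas in siprdx1 the lowest H2O2 library, replicate 3, lay below the highest untreated one. H2O2 raised Spry4 1.78-fold in siNC (0.83 ± 0.09, edgeR adjusted p = 2.98e-06) and 1.25-fold in siprdx1 (0.32 ± 0.09, adjusted p = 0.0375). The siprdx1 call was lost without siprdx1 replicate 1 or 2 (edgeR adjusted p = 0.110 and 0.171), without siprdx1+H2O2 replicate 1 or 2 (0.0600 and 0.204), and with library totals alone (0.28, 0.0715) or only those groups fitted (0.31, 0.220). Fluvastatin raised it 1.68-fold in siNC (0.74 ± 0.09, edgeR adjusted p = 7.11e-07) and 1.84-fold in siprdx1 (0.88 ± 0.09, adjusted p = 5.05e-08).

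Spry2 (ENSMUSG00000022114, chr14:105891947-105896819, minus strand) read 36.1, 35.6 and 36.3 CPM in siNC, 44.5, 38.4 and 45.6 in siNC+H2O2, and 63.1, 66.1 and 66.1 in siNC+H2O2+FV. The siprdx1 values were 36.0, 35.8 and 37.1 CPM, 48.2, 45.0 and 44.8 with H2O2, and 64.3, 62.9 and 70.3 with fluvastatin. Both arms showed the same 3 steps, with no overlap between the steps. H2O2 raised Spry2 1.19-fold in siNC (0.25 ± 0.07, edgeR adjusted p = 0.0203) and 1.27-fold in siprdx1 (0.34 ± 0.07, adjusted p = 0.00160). The siNC call was lost without siNC replicate 2 or 3 (edgeR adjusted p = 0.0725 and 0.0575), without siNC+H2O2 replicate 1 or 3 (0.103 and 0.129), and when only those groups were fitted (0.0572). Fluvastatin raised it 1.52-fold in siNC (0.60 ± 0.06, edgeR adjusted p = 1.86e-07) and 1.43-fold in siprdx1 (0.52 ± 0.06, adjusted p = 1.40e-06).

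Spry1, of the same family, went the other way with fluvastatin. Spry1 (ENSMUSG00000037211, chr3:37639947-37644598, plus strand) read 103, 97.7 and 104 CPM in siNC, 97.9, 94.0 and 96.0 in siNC+H2O2, and 69.6, 76.0 and 75.5 in siNC+H2O2+FV. In siprdx1 it read 90.2, 94.6 and 88.4 CPM, 89.2, 94.3 and 88.8 with H2O2, and 64.3, 70.9 and 69.1 with fluvastatin. The fluvastatin libraries were the lowest in each arm, and untreated and H2O2 libraries overlapped. Fluvastatin lowered Spry1 in siNC (log2 -0.38 ± 0.06, edgeR adjusted p = 1.52e-05) and in siprdx1 (-0.42 ± 0.06, adjusted p = 4.07e-06), and the H2O2 effects of -0.08 ± 0.05 and -0.00 ± 0.05 did not pass (adjusted p = 0.412 and 0.973). The annotation places Gm42922 on the other strand of Spry1, at no more than 1.80% of its value in any library.

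Spred1 and Spred2, Sprouty-related proteins that hold back RAS and RAF, passed for fluvastatin in siprdx1 and not in siNC, and the difference between the arms did not pass (edgeR adjusted p = 0.438 and 0.477). Spred1 (ENSMUSG00000027351, chr2:117121374-117182279, plus strand) read 171, 192 and 177 CPM in siNC, 180.0, 185 and 166 in siNC+H2O2, and 164, 162 and 138 in siNC+H2O2+FV. In siprdx1 it read 205, 175 and 192 CPM, 230.0, 167 and 189 with H2O2, and 144, 136 and 149.6 with fluvastatin. The siprdx1+H2O2 libraries were the most spread, and the fluvastatin libraries were below all others in each arm. The fluvastatin effect was -0.20 ± 0.09 in siNC (edgeR adjusted p = 0.134, but 0.0191 with library totals alone, 0.0200 without the low-count filter and 0.0483 with only those groups fitted). In siprdx1 Spred1 fell (-0.45 ± 0.09, edgeR adjusted p = 0.000980). Spred2 (ENSMUSG00000045671, chr11:19924375-20024026, plus strand) ranged from 63.5 to 75.7 CPM over all 18 libraries. Its fluvastatin effect was -0.03 ± 0.06 in siNC (edgeR adjusted p = 0.789) and -0.17 ± 0.06 in siprdx1 (adjusted p = 0.0310), a call lost on leaving out any of 5 of the 6 libraries compared, the exception being siprdx1+H2O2 replicate 3, with adjusted p of 0.0594 to 0.100. Neither gene passed for H2O2 in either arm.

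**Figure D2:**
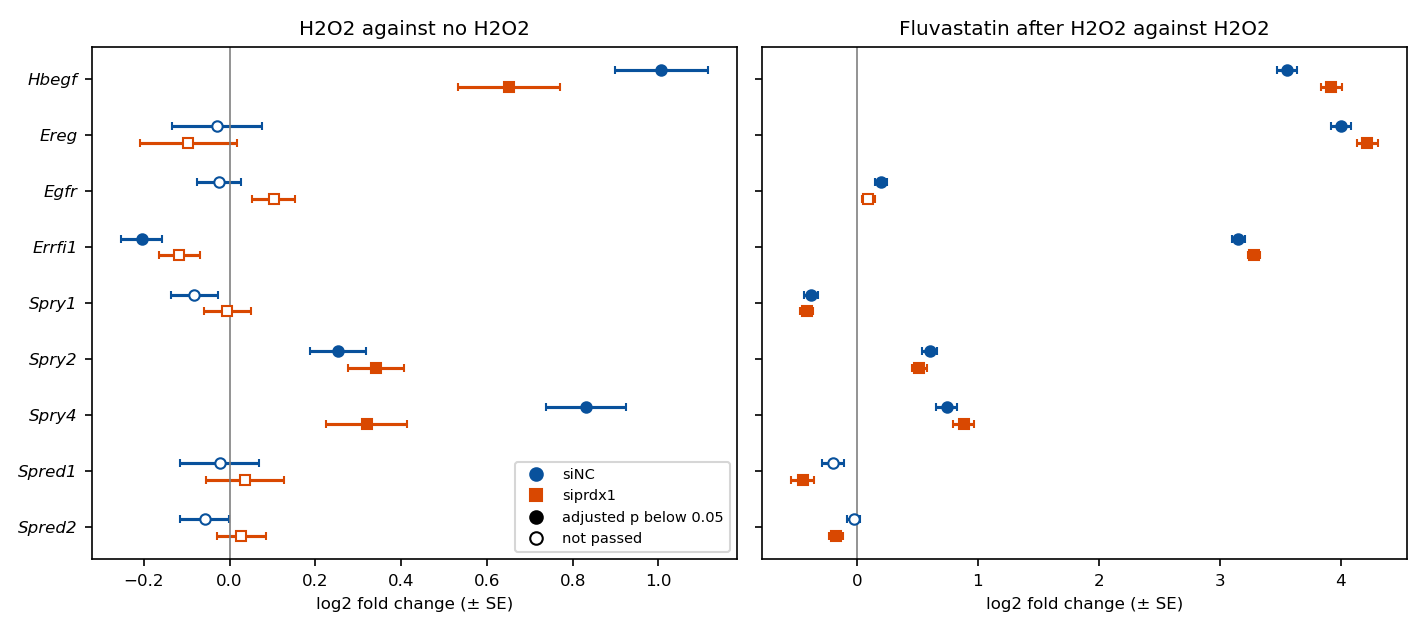
Log2 fold changes (points) with their SE (bars) of the 9 tested genes for H2O2 against no H2O2 and for fluvastatin after H2O2 against H2O2, in siNC (circles) and siprdx1 (squares), with filled symbols where the edgeR adjusted p was below 0.05. The horizontal axes differ between panels: the largest H2O2 effect is 1.01 for Hbegf in siNC and the largest fluvastatin effect 4.22 for Ereg in siprdx1.

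In counts, H2O2 changed 4 of the 9 tested genes in siNC (3 higher, Hbegf, Spry4 and Spry2, and 1 lower, Errfi1), where 6.95% of all tested genes passed, 2.36% higher and 4.59% lower. In siprdx1 it changed 3 of 9, all higher (Hbegf, Spry2 and Spry4), beside 7.87% of all genes (2.48% higher and 5.39% lower), with 2 higher and Errfi1 lower without siprdx1+H2O2 replicate 1, and 2 higher without replicate 2. Fluvastatin after H2O2 changed 7 of 9 in siNC (6 higher and 1 lower), where 24.9% of all genes passed (13.5% higher and 11.3% lower), and 8 of 9 in siprdx1 (5 higher and 3 lower), where 23.6% passed (12.6% higher and 11.0% lower). Without siprdx1+H2O2 replicate 1 or replicate 2 the last count was 7, 5 higher and 2 lower. With library totals alone, where the median gene is lower, the counts were 2 higher (Hbegf and Spry2) and 1 lower (Errfi1) for H2O2 in siprdx1, and 5 higher and 2 lower for fluvastatin in siNC. Under that scaling the genes called over the whole table were 234 higher and 1132 lower for H2O2 in siprdx1 (407 and 886 with TMM). For fluvastatin they were 1474 higher and 3835 lower in siNC (2226 and 1864 with TMM), and 1463 and 3634 in siprdx1 (2066 and 1810). The median fold change of the 9 was -0.02 and 0.04 (log2) for H2O2 and 0.60 and 0.52 for fluvastatin in siNC and siprdx1, beside medians of all genes of 0.01, 0.02, -0.01 and -0.01.

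Set against untreated cells of the same arm, the combined treatment left Hbegf 23.6-fold higher in siNC and 23.8-fold higher in siprdx1 (log2 4.56 ± 0.09 and 4.57 ± 0.09, edgeR adjusted p = 3.05e-21 and 7.08e-21). Ereg stood 15.7-fold and 17.4-fold higher, Errfi1 7.72-fold and 8.98-fold, Spry4 2.98-fold and 2.30-fold, and Spry2 1.81-fold in each arm, all past the same threshold. Spry1 stood 0.726-fold and 0.747-fold as high (edgeR adjusted p = 8.24e-07 and 3.67e-06). This comparison changed 7 of 9 genes in siNC, beside 23.0% of all genes (11.3% higher and 11.6% lower), and 8 of 9 in siprdx1, beside 25.5% (12.7% higher and 12.9% lower). With library totals alone it changed 8 of 9 in each arm, 5 higher and 3 lower, and over all genes 1170 higher and 4003 lower in siNC (1862 and 1913 with TMM) and 1153 and 4503 in siprdx1 (2079 and 2114). It shares its libraries with the comparisons above and is not separate evidence. The small rise of Egfr in it, 0.18 ± 0.05 in siNC (edgeR adjusted p = 0.0123), was lost without siNC replicate 1 or 3 or siNC+H2O2+FV replicate 1 or 2 (adjusted p of 0.0519 to 0.0719).

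Summed markers of other cells also differed with both treatments. For comparison, 6.95% and 7.87% of all genes passed for H2O2 in siNC and siprdx1, and 24.9% and 23.6% for fluvastatin. Several counts of called markers were near or below these shares, such as 1 of 12 macrophage markers for H2O2 in siNC. With H2O2, the summed CPM of the 12 macrophage markers was 8622 to 9423 in siNC and 9824 to 10430 in siNC+H2O2, with 1 marker called higher, and 8105 to 8315 in siprdx1 and 8439 to 8642 in siprdx1+H2O2, with 0 called by edgeR. The sum of the 6 fibroblast markers was 15020 to 15772 CPM in siprdx1 and 17269 to 18535 in siprdx1+H2O2, with 3 called higher, and 0 were called in siNC. The sum of 3 Sertoli cell markers was 41.8 to 43.1 CPM in siNC and 46.7 to 50.7 in siNC+H2O2, and 48.6 to 53.4 and 57.9 to 61.8 in the siprdx1 arm, with 1 called higher in each. That of 3 endothelial markers was 67.8 to 78.0 CPM in siprdx1 and 81.1 to 92.9 in siprdx1+H2O2, with 1 called higher, and 0 were called in siNC. With fluvastatin, the sum of 4 smooth muscle markers (Acta2, Myh11, Cnn1 and Des, all tested) was 1133 to 1411 CPM over the 6 libraries, beside 521 to 731 over the 12 without it, with 3 of the 4 higher in each arm. The macrophage sum was 8632 to 8710 CPM in siNC+H2O2+FV, inside the range of untreated siNC, with 6 of 12 lower than in siNC+H2O2. It was 8779 to 9224 CPM in siprdx1+H2O2+FV, with 2 higher than in siprdx1+H2O2. The fibroblast sum was 18251 to 18956 CPM in siNC+H2O2+FV, with 1 of 6 lower, and 15798 to 16454 in siprdx1+H2O2+FV, with 2 lower. The endothelial sum, 81.1 to 92.9 CPM in siprdx1+H2O2, was 74.1 to 75.2 in siprdx1+H2O2+FV, inside the range of untreated siprdx1. Of the 3 markers 1 was lower there, and 0 were called in siNC. The Sertoli sum was 58.4 to 65.3 CPM in siNC+H2O2+FV, with 1 of 3 higher and 1 lower, and 68.8 to 77.0 in siprdx1+H2O2+FV, with 2 higher and 1 lower. The Leydig sum, with 6 of 8 tested, was 1165 to 1184 CPM in siNC+H2O2 and 1445 to 1497 in siNC+H2O2+FV, with 1 marker higher, 2 lower and a median of -0.05 (log2). In siprdx1 it was 986 to 1047 and 1334 to 1345 CPM, with 2 higher, 1 lower and a median of 0.02. The part of these shifts in the changes of the ligands and inhibitors was not tested.

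Knockdown of Prdx1 gave few calls among the 9 tested genes. Without H2O2 it changed 0 of 9 (edgeR, with 4 at an unadjusted p below 0.05), beside 2.33% of all genes, and DESeq2 called 1, Errfi1 (-0.15, adjusted p = 0.0397, against -0.16 ± 0.05 and 0.102 in edgeR). After H2O2 it changed 2 of 9 (4 at an unadjusted p below 0.05), beside 2.73% of all genes. Hbegf was lower in all 3 siprdx1+H2O2 libraries (4.64 to 5.82 CPM) than in the 3 siNC+H2O2 libraries (6.86 to 8.03), a change of -0.54 ± 0.10 (edgeR adjusted p = 0.00338). This call held without any 1 library and was lost when only the groups compared were fitted (-0.54, edgeR adjusted p = 0.0916). Egfr was higher by 0.19 ± 0.05 (edgeR adjusted p = 0.0421), a call lost on leaving out any of 5 of the 6 libraries, the exception being siNC+H2O2 replicate 2, and without the low-count filter (0.0650). Without siprdx1+H2O2 replicate 1 or 2 the Egfr difference was 0.18 and 0.20 (edgeR adjusted p = 0.111 and 0.0575). Spry4 differed by -0.28 ± 0.09 (edgeR adjusted p = 0.123), and by -0.39 (0.0196) without siprdx1+H2O2 replicate 2. Ereg differed by -0.26 ± 0.11 without H2O2 (edgeR adjusted p = 0.328) and by -0.33 ± 0.11 after H2O2 (adjusted p = 0.127). Its libraries did not overlap between the arms in either case. The same held for Errfi1, Spry1 and Spry4 without H2O2, and for Hbegf, Egfr and Spry4 after H2O2. How often the libraries of all genes separate in this way was not counted, so no weight is put on it. The summed CPM of the 6 fibroblast markers, all tested, was 17269 to 18535 in siprdx1+H2O2 and 18924 to 19620 in siNC+H2O2, and that of the 12 macrophage markers was 8439 to 8642 and 9824 to 10430. Of these, 2 fibroblast markers were called higher and 1 lower, and 2 macrophage markers lower, and their part in these differences was not tested. After H2O2 with fluvastatin the knockdown changed 0 of 9 by edgeR (1 at an unadjusted p below 0.05) and 0 by DESeq2, beside 3.97% of all genes, and Hbegf differed by -0.17 ± 0.07 (edgeR adjusted p = 0.166).

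**Figure D3:**
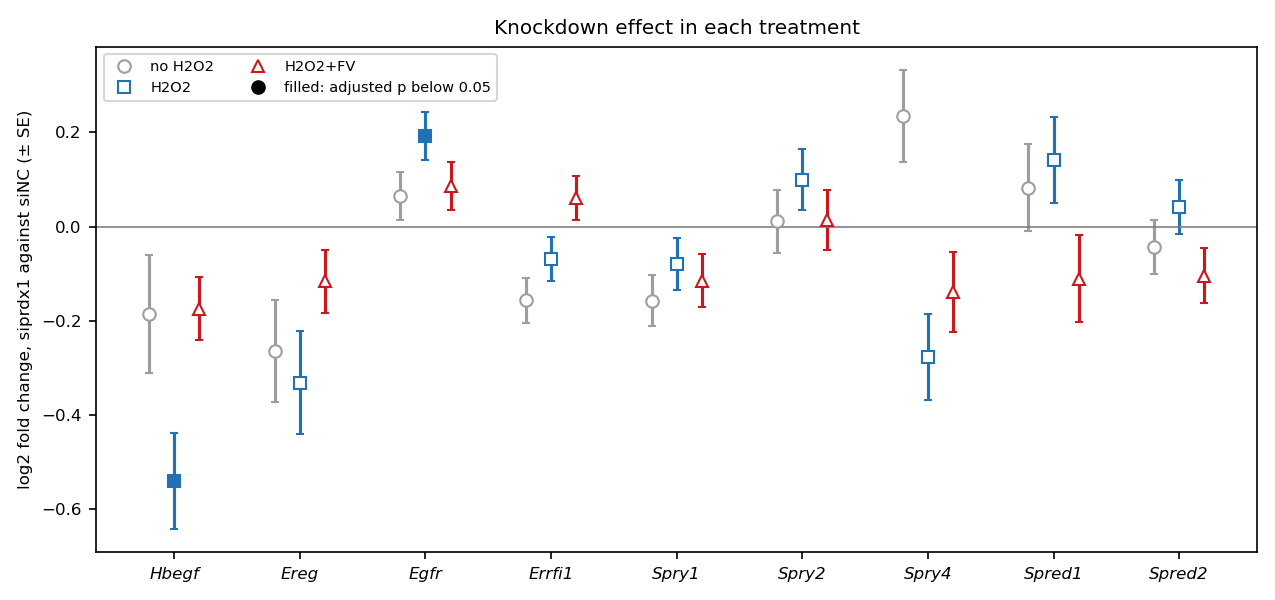
Knockdown effect (siprdx1 against siNC, log2 fold change, points) with its SE (bars) on the 9 tested genes without H2O2 (circles), after H2O2 (squares) and after H2O2 with fluvastatin (triangles), filled where the edgeR adjusted p was below 0.05. The filled points are Hbegf at -0.54 and Egfr at 0.19, both after H2O2.

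Whether a treatment effect differed between the siRNA arms was tested as an interaction. The interactions for H2O2 and for fluvastatin share the groups given H2O2 alone, with opposite sign, and are not separate evidence. For H2O2, 0 of 9 passed in edgeR and in DESeq2, with 2 at an unadjusted p below 0.05, and 0.243% of all genes passed. The rise of Spry4 with H2O2 differed by -0.51 ± 0.13 (siprdx1 minus siNC, 95% interval -0.79 to -0.23, edgeR adjusted p = 0.195), and without siprdx1+H2O2 replicate 2 this was -0.63 (adjusted p = 0.0290). For Hbegf the difference was -0.36 ± 0.16 (95% interval -0.69 to -0.02, edgeR adjusted p = 0.802). For fluvastatin, 0 of 9 passed in edgeR and in DESeq2, with 1 at an unadjusted p below 0.05, beside 0.651% of all genes, and that 1 was Hbegf at 0.37 ± 0.12 (95% interval 0.11 to 0.62, edgeR adjusted p = 0.207). For Ereg and Errfi1 the fluvastatin differences were 0.22 ± 0.13 (interval -0.05 to 0.48) and 0.13 ± 0.07 (interval -0.01 to 0.27).

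The rest of the pathway was read from 6 lists of 59 genes, of which 56 were tested, and its largest fold changes for H2O2 and for fluvastatin, in both arms, were in genes that ERK signalling is known to drive. These made up 11 of the 26 fluvastatin calls in each arm. The lists were chosen with earlier results of these data known, so this ordering of the lists is a description and not a test. Of the 6 other EGF-family ligands tested, 0 passed in edgeR for H2O2 or fluvastatin in either arm (1 at an unadjusted p below 0.05, for fluvastatin in siNC), and DESeq2 called 0. Tgfa, which encodes another EGFR ligand and is named after its values were seen, averaged 38.6 to 40.1 CPM in all 6 groups. Nrg3 was at 0 counts in every library. The 1 call in this list was Nrg1, a ligand of ERBB3 and ERBB4, in siNC+H2O2+FV against siNC (0.48 ± 0.16, edgeR adjusted p = 0.0364). Among the other ERBB receptors, Erbb2 fell with fluvastatin from 17.3 ± 1.17 to 13.2 ± 0.921 CPM in siNC (SD, n = 3, log2 -0.39 ± 0.10, edgeR adjusted p = 0.00664) and from 19.2 ± 0.973 to 11.6 ± 0.857 in siprdx1 (-0.73 ± 0.10, adjusted p = 7.63e-06). Erbb3 passed in neither arm and Erbb4, below 0.1 CPM in every group mean, was not tested. Of 6 genes of ligand shedding, 2 rose with fluvastatin in siNC, the metalloprotease Adam12 (0.31 ± 0.08) and Rhbdf2 (0.37 ± 0.09), a partner of the sheddase ADAM17, and 1 in siprdx1, Rhbdf2 (0.46 ± 0.09). These shedding counts were near the shares of all genes that passed for fluvastatin, 24.9% in siNC and 23.6% in siprdx1. For H2O2 the shares were 6.95% and 7.87%.

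Among 10 other inhibitors of the receptors or of RAS, 5 rose and 1 fell with fluvastatin in siNC (median 0.20), and 3 rose and 2 fell in siprdx1 (median 0.19). Beside these stand 24.9% of all genes in siNC (13.5% higher and 11.3% lower) and 23.6% in siprdx1 (12.6% higher and 11.0% lower). Lrig1, a membrane protein that promotes ERBB turnover, rose by 0.47 ± 0.05 and 0.36 ± 0.05, and Socs5, which is linked to EGFR degradation, by 0.43 ± 0.06 and 0.45 ± 0.05. Lrig3 changed by -0.66 ± 0.11 and -0.96 ± 0.12 in the same comparisons. With H2O2 the single call in this list was Spred3, the third SPRED gene, at -0.42 ± 0.08 in siNC and -0.56 ± 0.08 in siprdx1. Of 20 genes of the RAS-ERK relay, 5 rose and 1 fell with fluvastatin in siNC, among them Ptpn11 (0.26 ± 0.05) and Braf (0.43 ± 0.08). In siprdx1 5 rose and 3 fell, led by Sos1 (-0.37 ± 0.08), Araf (0.26 ± 0.06) and Sos2 (-0.30 ± 0.07). The same shares of all genes, 24.9% and 23.6%, stand beside these relay counts. With H2O2, 1 of the 20 passed in siNC and 2 in siprdx1, beside 6.95% and 7.87% of all genes. Araf was lower in both arms (-0.22 ± 0.06 and -0.31 ± 0.06) and Braf in siprdx1 (-0.30 ± 0.08). Whether these lists differ from the shares of all genes was not tested.

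Of 12 genes that ERK drives, 9 rose and 2 fell with fluvastatin in each arm, with medians of 1.01 and 1.56 (log2), and 5 rose and 0 fell with H2O2 in each arm, with medians of 0.24 and 0.20. Over all genes, 24.9% and 23.6% passed for fluvastatin and 6.95% and 7.87% for H2O2 in siNC and siprdx1. Etv5 and Ccnd1, named after their values were seen, were lower with fluvastatin. Mean CPM of Etv5 went from 202 to 171 in siNC and from 201 to 163 in siprdx1. That of Ccnd1 went from 231 to 207 and from 211 to 187. With fluvastatin Fosl1, an AP-1 subunit, rose from 5.36 ± 0.961 to 96.4 ± 4.45 CPM in siNC (SD, n = 3, log2 4.18 ± 0.10) and from 6.19 ± 0.618 to 116 ± 7.48 in siprdx1 (4.22 ± 0.10). Dusp5, a nuclear phosphatase of ERK, rose from 9.60 ± 1.48 to 85.3 ± 7.08 CPM in siNC and from 8.79 ± 0.228 to 96.1 ± 2.77 in siprdx1 (log2 3.14 ± 0.09 and 3.45 ± 0.09). With H2O2 Phlda1 rose by 1.15 ± 0.09 in siNC and 0.59 ± 0.09 in siprdx1, and Ier3, an early response gene, by 0.73 ± 0.07 and 0.45 ± 0.07. Egr1, an early growth response factor, rose 4.99-fold with H2O2 in siNC and 3.09-fold in siprdx1, and its interactions, unlike those of the 9 genes, passed. Knockdown changed 2 of the 56 pathway genes without H2O2 (Fosl1 0.49 ± 0.13 and Myc 0.27 ± 0.07), beside 2.33% of all genes. After H2O2 it changed 1 of 56 (Egr1 -0.82 ± 0.06), beside 2.73% of all genes. After H2O2 with fluvastatin it changed 2 of 56 (Fosl1 0.27 ± 0.08 and Cbl -0.22 ± 0.06), beside 3.97%. All 56 together had a median fluvastatin effect of 0.10 in siNC and 0.06 in siprdx1, with 26 passing in each, beside 24.9% and 23.6% of all genes.

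**Figure D4:**
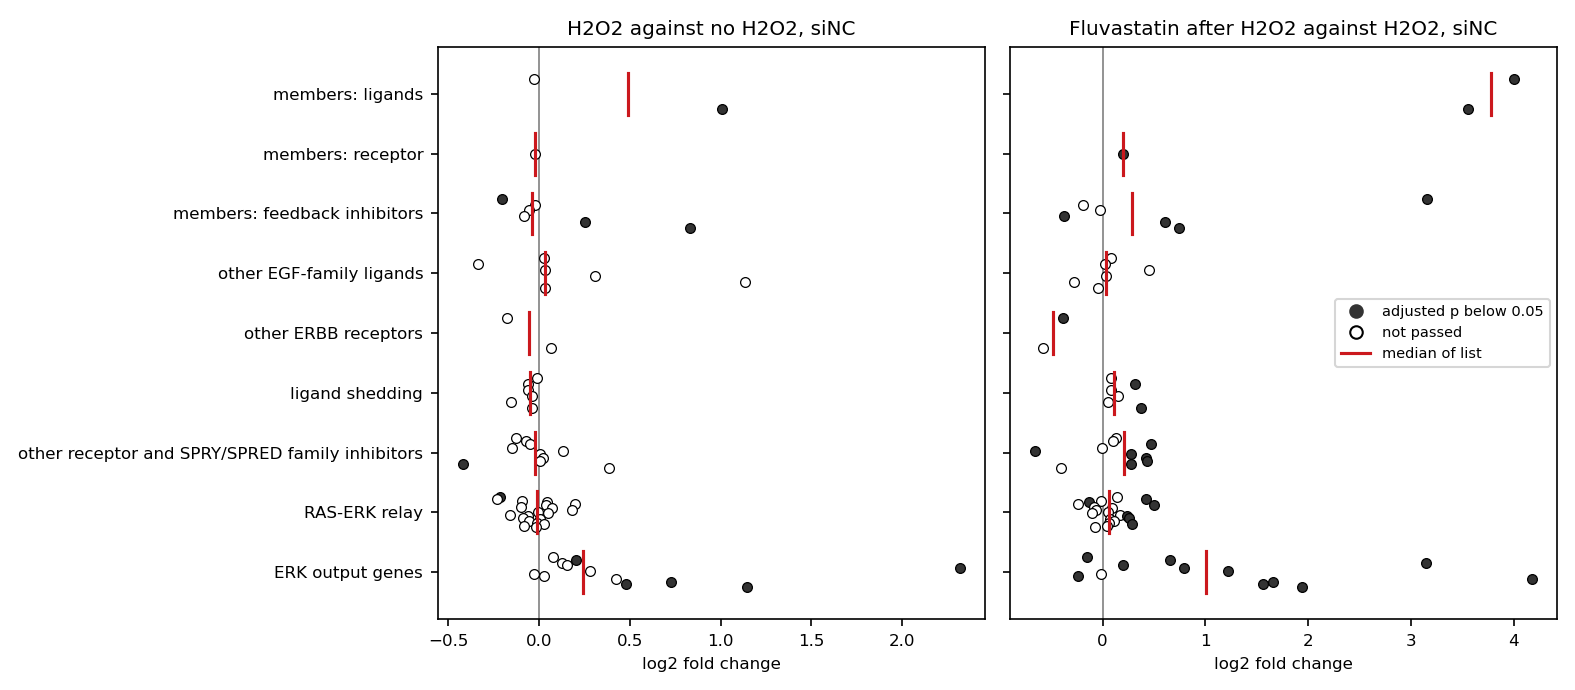
Log2 fold changes in siNC of each tested gene (points, filled where the edgeR adjusted p was below 0.05, vertical scatter within a row only to separate points) for H2O2 and for fluvastatin after H2O2, by list, with the median of each list (red line). The ERK output row reaches 4.18 with fluvastatin, for Fosl1, beside 4.00 for Ereg among the ligands. In that panel the rows of the other ligands and of shedding stay between -0.28 and 0.45. In the H2O2 panel the row of the other ligands runs from -0.34 to 1.13, with 0 called.

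Across the 18 libraries, as a description only since the points share groups, treatments and depth, the levels of Ereg and Errfi1 had a Pearson r of 0.997 on log2 CPM, Hbegf and Ereg 0.982, and Hbegf and Spry1 -0.911. The tested genes outside the 10 with patterns most like Hbegf were Sat1 (r = 0.995), Hmox1 (0.995) and Klf10 (0.994), and those most like Ereg were Thbs1 (0.997), Nr4a3 (0.996) and Itga5 (0.995). For Errfi1 they were Egr3 (0.998), Itga5 (0.998) and Thbs1 (0.998), and for Spry4, which also stepped up with H2O2, Atf4 (0.976), Ier5 (0.973) and Plk2 (0.970).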

How the data were processed

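Poly(A) RNA of 18 cultures was sequenced with a stranded kit (per the labels' protocols), and the authors deposited raw read counts per gene. HISAT2, HTSeq and mm10 are named in the submitters' processing notes, and versions, annotation and strand setting are not given in the sources used here. Coordinates and exon lengths came from GENCODE vM21 (GRCm38), which held 55141 of 55487 gene IDs.

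Counts were fitted with edgeR 4.0.16 in R 4.3.3 (filterByExpr, TMM, robust glmQLFit, 6 group means, 12 residual degrees of freedom, biological coefficient of variation 7.01%). The threshold was an adjusted p (Benjamini-Hochberg, over 16432 genes within each of 11 contrasts) below 0.05, and the SE is the fold change divided by the square root of F. CPM used TMM library sizes. The 10 genes, the pathway and marker lists and the motifs were chosen with earlier results of these data known. Named besides the 10 were up to 3 passing genes per list and contrast with the smallest p, and for 4 of the 10 genes the 3 most correlated genes averaging at least 1 CPM. A gene that this rule names is not reported here. Alternatives were RLE scaling, library totals alone, no low-count filter, a replicate block, only the groups compared, DESeq2 1.42.0, and leaving out each library. The steps were tested on simulated data. Same-numbered libraries deviated together in the H2O2 comparison in siNC (correlations 0.135, 0.135 and 0.118), a pairing that comes from the data and not from the labels.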

Additional observations from a re-analysis of the deposited data

Results flagged for a closer look

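Egr1, an immediate early transcription factor and 1 of the 12 genes listed as driven by ERK, was the only gene of the pathway lists whose treatment effects differed between the siRNA arms in edgeR's test of the difference itself. DESeq2 called 2 of those 12 genes for H2O2 and 2 for fluvastatin. Its mean was 135 ± 6.84 CPM in siNC, 675 ± 18.1 in siNC+H2O2 and 1171 ± 65.5 in siNC+H2O2+FV (SD, n = 3), against 124 ± 6.31, 381 ± 18.4 and 1191 ± 65.5 in the siprdx1 groups. The H2O2 effect was smaller in siprdx1, with a difference of -0.69 on the log2 scale (edgeR adjusted p = 4.81e-05). The fluvastatin effect was larger there, with a difference of 0.85 (edgeR adjusted p = 7.57e-07). Without any 1 library these differences ranged from -0.73 to -0.65 and from 0.81 to 0.89. Both use the siNC+H2O2 and siprdx1+H2O2 groups, with opposite sign, so they are not separate evidence. With fluvastatin the arms did not differ detectably in Egr1 (knockdown effect 0.02, edgeR with the replicate block, adjusted p = 0.879).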

How the results depend on the processing

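Of 1440 recomputed values of the 9 tested genes and Egr1, 1365 kept their direction and their side of the threshold, 35 lost a call, 14 gained one and 26 changed sign. With library totals alone the H2O2 effects in siprdx1 on Spred1 and Spred2 were -0.002314 and -0.01044, and the fluvastatin effect there on Egfr was -0.005692. Fitting only the groups compared left 1 of the 9 genes and 629 of all genes for H2O2 in siprdx1 (3 and 1293 with all groups), 208 genes for knockdown without H2O2 (383), 0 of 9 and 186 genes for knockdown after H2O2 (2 and 448), and 24 genes for the H2O2 interaction (40), with fewer libraries to estimate the spread. Without the low-count filter, knockdown after H2O2 changed 1 of the 9, and the interactions had 97 (H2O2) and 281 (fluvastatin, 107 with the filter) genes. DESeq2 gave 1 of the 9 for knockdown without H2O2 and 69 and 206 genes for the interactions. The cause of the filter and DESeq2 differences was not tested.

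Leaving out 1 library at a time, the genes called ranged from 653 to 1175 for H2O2 in siNC, 824 to 1261 for H2O2 in siprdx1, 207 to 347, 229 to 461 and 329 to 641 for knockdown without H2O2, after H2O2 and with fluvastatin, and 26 to 54 and 53 to 136 for the H2O2 and fluvastatin interactions. Of the 9 genes, 1 to 2 were called for knockdown after H2O2 and 0 to 1 for the H2O2 interaction. Values near 0 changed sign: for H2O2 in siNC, Ereg (-0.09799 to 0.06356), Egfr (-0.06351 to 0.01662) and Spred1 (-0.05716 to 0.02564), and for fluvastatin in siNC, Spred2 (-0.07489 to 0.002159). For H2O2 in siprdx1 these were Spry1 (-0.03389 to 0.02301), Spred1 (-0.09674 to 0.1371) and Spred2 (-0.01016 to 0.0595). For knockdown they were Spry2 without H2O2 (-0.004874 to 0.02189), Spred2 after H2O2 (-0.00642 to 0.06844), and Spry2 (-0.03419 to 0.04571) and Egr1 (-0.009638 to 0.07123) with fluvastatin. For the interactions they were Ereg (-0.1597 to 0.001667) and Spred1 (-0.07395 to 0.1599) with H2O2 and Spry1 (-0.07474 to 0.004989) with fluvastatin. With the replicate block no call on the 9 genes changed in any contrast. For H2O2 in siNC, where same-numbered libraries deviated together, the blocked fit gave 4 of the 9 and 1348 genes (1142 without the block), with Hbegf at 1.01. The rule used, all 3 correlations above 0.1, was not met in the other pairwise contrasts. Single correlations there could be higher, as for H2O2 in siprdx1 (0.178, 0.256 and -0.006) and fluvastatin in siprdx1 (0.120, 0.232 and -0.012).

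Areg, at 0 to 1 counts without fluvastatin, is too shallow here for any comparison but that with fluvastatin. Most calls that changed on leaving out a library were on Egfr, Spred2, Spry2 and Spry4.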
